A study of Mus musculus with 28 samples.

Results

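Lars2 (ENSMUSG00000035202) is a single protein-coding gene, 1 of 30210 features in each deposited table, and was chosen by its share of counts, the highest of all features on average. The gene was found by the feature name that ends in Lars2. Its level is therefore a description here, with no test. Tests were run on its differences between groups and its ratios to other RNAs. Those of WT against RM that use dataset A are not independent of the choice, as set out below.

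RNA was sequenced that had been immunoprecipitated with the kinase PKR from mouse embryonic fibroblasts. All cells had been reconstituted with PKR, either the wild type (WT) or a form with a mutation in each double-stranded RNA-binding motif (RM), and were mock-treated or exposed to palmitic acid at 0.1 mM, a common saturated fatty acid. Datasets A and B each held 3 libraries of WT mock, WT palmitate, RM mock and RM palmitate, described as biological replicates, and dataset C held 1 library of each. The study was set up to find RNAs that WT PKR holds in greater amount after palmitate. No input RNA or control precipitate was analysed here, so that RNA abundance, fewer cells of a type, less RNA per cell and recovery with PKR cannot be told apart. The duration of treatment was not given in the sources used here for dataset A, and the columns of dataset B are tagged 2hr without an explanation.

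LARS2 is the leucyl-tRNA synthetase of mitochondria. It is encoded in the nucleus, made in the cytosol and imported, and it joins leucine to mitochondrial leucine tRNA so that the mitochondrial ribosome can place leucine in the proteins encoded by mitochondrial DNA. LARS, a separate enzyme encoded by Lars, does the same in the cytosol. Most mitochondrial synthetases likewise have a nuclear gene separate from that of the cytosolic enzyme, and their mRNAs are usually modest in abundance. PKR is a kinase activated by double-stranded RNA. Ribosomal RNA (rRNA) is the bulk of cellular RNA, and it is the usual reference for reads in a precipitate that do not come from mRNA.

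In the files' mm9 coordinates Lars2 lies on chromosome 9, from 123276058 to 123371782, on the plus strand, with 3881 bp of feature length. 0 other features overlapped it. The nearest feature before it, Tmem158 on the minus strand (chromosome 9, 123168176 to 123169907), had at most 3 counts in any library of dataset A and 6 in dataset B. The nearest feature after it, Limd1 (a LIM domain protein), lies on the same strand at 123387819 to 123430666 and had 14 to 126 counts in A and 66 to 252 in B. Lars2 had 6007 to 540800 counts in A and 80233 to 274699 in B, so its level was not shared by the genes at its flanks.

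Names and transcript sequences were taken from GENCODE M21, which is on a newer build, so none of its positions in the genome are given. Its transcript Lars2-201 has 3894 bases in 21 exons, with the coding sequence at bases 200 to 2908 and a 3' untranslated region of 986 bases. In a blastn search of 141767 annotated transcripts, 2 other genes matched Lars2-201 at an e-value of at most 1e-10. AA474408-201, an unclassified transcript of 3339 bases, matched bases 3163 to 3349 on the same strand, with 80.1% identity over 196 aligned positions, 5 mismatches and 34 gap positions. Gm15564-202, annotated as antisense to another gene, matched bases 3278 to 3349 on the same strand with 1 mismatch over 72 positions. Both matches lie in the 3' untranslated region, in the last exon, which starts at base 2729. AA474408 is a feature of the deposited tables, and Gm15564 was not found among them. The next 3 lines show 30 bases of the stretch that the 3 transcripts share, from GENCODE M21, because both matches cover it. The capital marks position 20, counted from the 5' end of the stretch.
Lars2 (bases 3295 to 3324 of Lars2-201): gattgttcacccactaataGggaacgtgag
Gm15564 (bases 196 to 225 of Gm15564-202): gattgttcacccactaataGggaacgtgag
AA474408 (bases 1605 to 1634 of AA474408-201): gattgttcacccactaataAggaacgtgag
Lars2 and Gm15564 were identical over these 30 bases, and AA474408 differed by G20A. As background, a run of letters like this one belongs to a conserved part of the large-subunit (28S) rRNA. No 28S sequence was used here, so that likeness was not computed. None of the 358 rRNA transcripts in the reference, which include both mitochondrial rRNAs and the short nuclear ones, matched Lars2-201 even at an e-value limit of 0.001 (0 matches). The deposited tables give 1 count per gene, and where along Lars2 its reads lie was not analysed here.

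**Figure D1:**
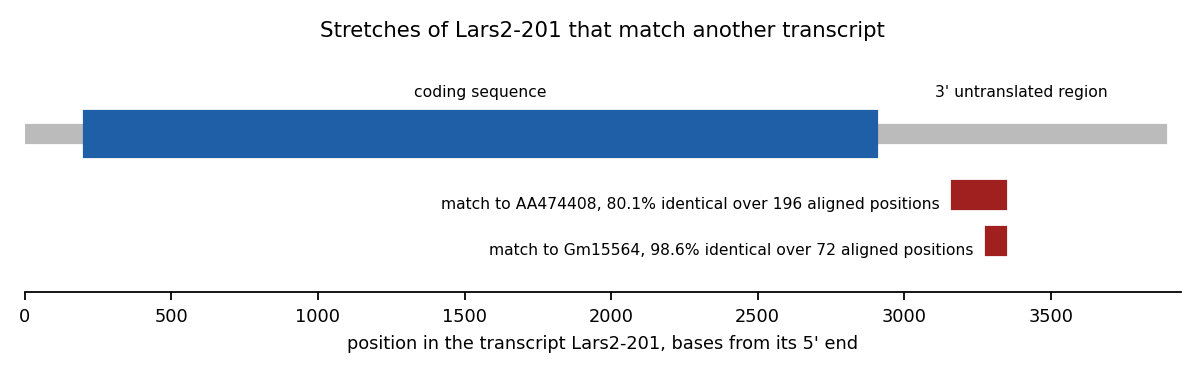
Map of the annotated transcript Lars2-201, with position in bases from its 5' end on the horizontal axis. The blue box is the coding sequence, grey bars are untranslated, and the red boxes mark bases 3163 to 3349 and 3278 to 3349, which match AA474408 and Gm15564 and both lie in the 3' untranslated region.

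Lars2 held 8.26% ± 3.40 (SD, n = 6) of all counts in the WT libraries of dataset A and 1.88% ± 0.396 (SD, n = 6) in the RM libraries. In WT mock libraries 1, 2 and 3 of A, its counts were 389959, 540800 and 323145, or 10.98%, 12.6% and 8.23% of all counts. In WT palmitate of A they were 238590, 309912 and 278602, or 3.16%, 5.98% and 8.57%. In RM mock of A they were 120627, 116165 and 111499, or 1.501%, 1.86% and 2.22%. In RM palmitate of A they were 92182, 6007 and 115751, or 1.35%, 2.36% and 1.98%, and the low count of the second belongs to a library of only 254762 counts. Each of the 6 WT libraries was above each of the 6 RM libraries, and the WT palmitate libraries spread the most. The share of all features with such a separation in A is not given here.

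In dataset B the shares were closer together. WT mock had 274699, 240506 and 222086 Lars2 counts, or 4.15%, 3.90% and 4.13% of all counts. WT palmitate had 188900, 126546 and 176439, or 3.26%, 3.57% and 3.04%. RM mock had 221394, 152012 and 80233, or 3.11%, 2.16% and 2.10%. RM palmitate had 93799, 82934 and 95434, or 2.69%, 3.76% and 3.54%. The mock libraries of WT and RM did not overlap, while under palmitate the genotypes overlapped. The share of all features without such overlap is not given here. In dataset C, Lars2 had 1173435 counts (15.7%) with WT mock, 997892 (12.9%) with WT palmitate, 685272 (6.78%) with RM mock and 812122 (6.97%) with RM palmitate. With 1 library per group these values have no replicate check.

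**Figure D2:**
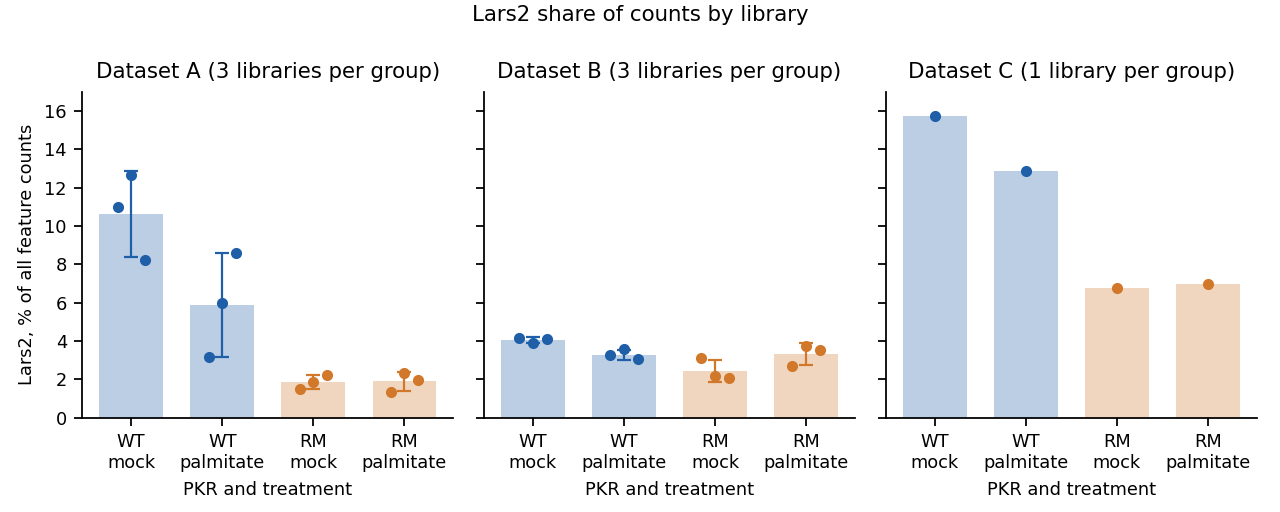
Share of Lars2 in all feature counts (vertical axis, percent) in each group of datasets A, B and C (points are libraries, bars are means and error bars are the SD of 3 libraries). WT libraries of A reach 12.6% while RM libraries of A stay at or below 2.36%, and in B all libraries lie between 2.10% and 4.15%.

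Lars2 ranked first by mean share in all 3 datasets, with 5.07% in A, 3.28% in B and 10.6% in C. In single libraries it was the most abundant feature in 4 of 12 of A, 10 of 12 of B and 4 of 4 of C, and its lowest rank was 17, in RM palmitate replicate 1 of A. It was thus the most abundant feature by the means and in every library of C. In A it was first in the 3 WT mock libraries but in only 1 of the 6 RM libraries, the shallow one. WT palmitate replicates 1, 2 and 3 of A had Lars2 at ranks 4, 2 and 2. Among the other RM libraries of A, Gm25878, a snoRNA feature, led the 3 RM mock libraries with 3.88% to 6.22%. The features next below Lars2 by mean share were n-R5-8s1 (a short rRNA of the large ribosomal subunit) in A with 4.14%, Myh9 (non-muscle myosin heavy chain) in B with 1.58%, and ENSMUSG00000093337, a miRNA feature, in C with 4.19%. Per kb of feature length, Lars2 ranked first in A among 19845 features of at least 1000 bp and second in B, after mt-Rnr2.

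Total counts ran from 254762 to 8036622 per library in A and from 2204502 to 7122087 in B. TMM scaling factors were 0.810 to 1.35 in A and 0.637 to 1.14 in B, with the lowest in RM palmitate replicates 3 and 2 of B. Of 10 fibroblast markers, 10 had a median of at least 1 count, and their summed level was 7482 to 26030 CPM (counts per 1e6 after scaling). Summed immune markers (macrophage and lymphocyte) stayed at or below 3.72 CPM in all 24 libraries, epithelial markers at or below 14.3 CPM and endothelial markers at or below 2.82 CPM, and 3 of the 7 macrophage and lymphocyte markers were at 0 throughout.

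Other mRNAs of the same function were far lower. The 16 other mitochondrial synthetase mRNAs together had 36 to 529 counts per library in A and 226 to 1470 in B. On the scale of CPM per kb of feature length, with no TMM scaling, the level of Lars2 was 3393-fold to 35200-fold the median of these 16 mRNAs in single libraries of A, and 2018-fold to 7841-fold in B. It was 469-fold to 6084-fold the highest of the 16 in A and 683-fold to 2159-fold in B. The highest of the 16 by mean level was Hars2 (histidyl) in A with 4.29 ± 2.91 (SD, n = 12) CPM per kb, and Iars2 (isoleucyl) in B with 6.46 ± 1.45 (SD, n = 12). The lowest were Pars2 (prolyl) in A with 0.386 ± 0.174 (SD, n = 12) and Mars2 (methionyl) in B with 0.789 ± 0.369 (SD, n = 12). Lars, the cytosolic counterpart, had 14.9 ± 7.62 (SD, n = 12) in A and 66.6 ± 16.7 (SD, n = 12) in B on the same scale. Every one of these mRNAs was below Lars2 in all 24 libraries.

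**Figure D3:**
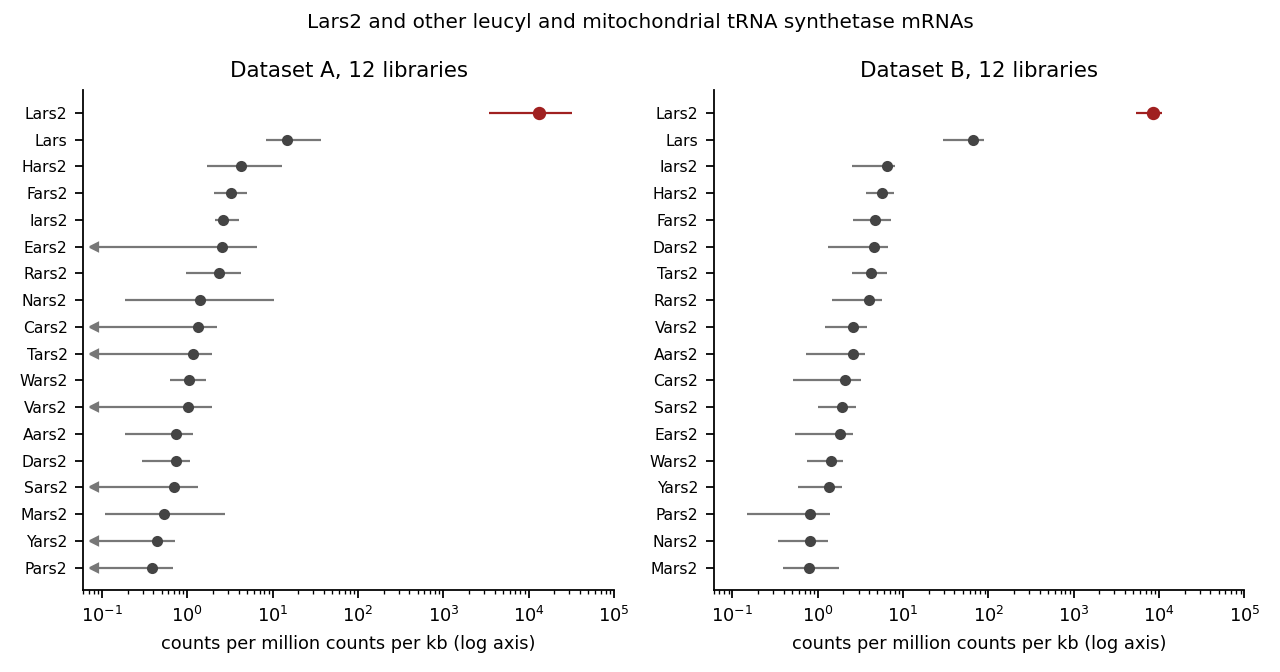
Level of Lars2, of Lars and of 16 mitochondrial tRNA synthetase mRNAs in CPM per kb of feature length (horizontal log axis). Points are means over 12 libraries, lines run from the lowest to the highest library, and arrowheads mark genes with 0 counts in some library. Lars2 (red) stands apart from the others, of which Lars is the highest with 14.9 in A and 66.6 in B.

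By share of counts, the rRNAs lay nearer to Lars2 than the synthetase mRNAs did. The mitochondrial 12S rRNA, mt-Rnr1, held 0.187% to 0.771% of counts in A and 0.398% to 5.19% in B. The mitochondrial 16S rRNA, mt-Rnr2, held 0.438% to 1.14% in A and 0.387% to 5.17% in B. The 338 nuclear rRNA features, which are 37 to 148 bp long and so hold none as long as the large rRNAs, summed to 10.5% to 35.5% in A and 13.3% to 26.5% in B. The 3 with the highest mean share were n-R5-8s1, with 0.777% to 9.45% in A and 0.461% to 1.46% in B, and the near copies ENSMUSG00000075999 and ENSMUSG00000093200, with at most 0.885% and 0.868% in any library. There were 6 nuclear rRNA features whose counts lay within 3% or 3 counts of those of ENSMUSG00000075999 in all 24 libraries, so a read may have been counted in several features and the sum is uncertain.

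The WT libraries of dataset A raised the mean share by which Lars2 was chosen (8.26% with WT, 1.88% with RM). Tests of WT against RM that use A are thus not independent of that choice. Lars2 was higher with WT than with RM PKR in mock-treated cells of dataset A. The log2 fold change was 2.69 ± 0.58 (SE), with an adjusted p of 0.00939 in edgeR's quasi-likelihood test, and 3.74% of all 11328 features tested were called in this comparison. Each of the 3 WT libraries lay above each of the 3 RM libraries. How many of all features were separated in this way is not given here. The call was lost without RM mock replicate 2 (2.68 on the log2 scale, edgeR adjusted p = 0.0793) and without RM mock replicate 3 (2.65, edgeR adjusted p = 0.0527). Under palmitate in A the difference was 2.03 ± 0.57 (SE), with an edgeR adjusted p of 0.0527, beside 3.43% of features called. This did not pass the threshold of 0.05, although the 3 WT libraries lay above the 3 RM libraries, again without a count of such features. It did pass without WT palmitate replicate 1 (2.28, edgeR adjusted p = 0.0284) and without RM palmitate replicate 2, the shallow library (2.20, edgeR adjusted p = 0.0145).

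In dataset B no comparison of Lars2 passed. WT against RM was 0.70 ± 0.31 (SE) in mock, with an edgeR adjusted p of 0.148, where 14.1% of 12466 features were called. Under palmitate it was -0.47 ± 0.31 (SE), with an edgeR adjusted p of 0.375, where 7.81% were called. Without RM palmitate replicates 2 and 3, which stood apart in scaling, the value under palmitate was 0.20 (edgeR adjusted p = 0.750) and that in mock 0.70 (edgeR adjusted p = 0.00215), and without RM palmitate replicate 1 the value under palmitate was -0.71 (edgeR adjusted p = 0.0146). The value under palmitate in B thus rested on which RM palmitate libraries entered the fit, while that in mock stayed at 0.70 without replicates 2 and 3.

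The genotype difference of Lars2 itself differed between the datasets. Averaged over the treatments, WT minus RM was 2.24 ± 0.45 (SE) larger on the log2 scale in A than in B, with an edgeR adjusted p of 0.00191 in a fit of 24 libraries, where 7.88% of 12683 features were called. AA474408 and n-R5-8s1 also had a larger genotype difference in A, by 2.62 ± 0.43 (SE) and 3.11 ± 0.52 (SE). WT minus RM was also higher in A than in B for mt-Rnr1, by 2.25 ± 0.46 (SE, edgeR adjusted p = 0.00249), and for mt-Rnr2, by 2.44 ± 0.48 (SE, edgeR adjusted p = 0.00157). These mitochondrial rRNAs had another pattern, since neither passed for genotype in A and both were lower with WT in B. In B, mt-Rnr1 was at -1.16 in mock and -3.24 under palmitate, and mt-Rnr2 at -1.395 and -3.19. Only the values under palmitate passed. Of the 36 mitochondrially encoded features tested, 30 passed, all with a higher WT minus RM in A, so a contrast of this sign was not particular to Lars2. The datasets are separate sets of libraries, and what else differed between them was not tested.

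Palmitate changed Lars2 in no comparison that passed the threshold. In A the log2 fold change of palmitate over mock was -0.72 ± 0.55 (SE) with WT PKR (edgeR adjusted p = 0.646, 0.335% of features called) and -0.06 ± 0.54 (SE) with RM PKR (edgeR adjusted p = 0.981, 0.477% called). In B it was -0.27 ± 0.31 (SE) with WT PKR (edgeR adjusted p = 0.594, 15.5% called) and 0.90 ± 0.32 (SE) with RM PKR (edgeR adjusted p = 0.0807, 7.53% called). The last value passed without RM palmitate replicate 1, at 1.14 (edgeR adjusted p = 0.000658). The palmitate response of WT minus that of RM was -0.66 ± 0.77 (SE) in A (edgeR adjusted p = 0.996) and -1.17 ± 0.44 (SE) in B (edgeR adjusted p = 0.206), beside 0.0% of features called in each by edgeR. DESeq2 called 350 features for this difference in B. At an unadjusted p Lars2 gave 0.0174 for the difference in B, and without RM palmitate replicate 1 the value was -1.41 (edgeR adjusted p = 0.00412). In the authors' deposited tables the log2 ratio of palmitate over mock for Lars2 was -0.86 with WT and -0.018 with RM in A, and -0.222 with WT and 0.73 with RM in B. The authors' false discovery rates there, read from a score taken as 10 times the negative log10, were 0.464, 1.0, 0.215 and 0.164.

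**Figure D4:**
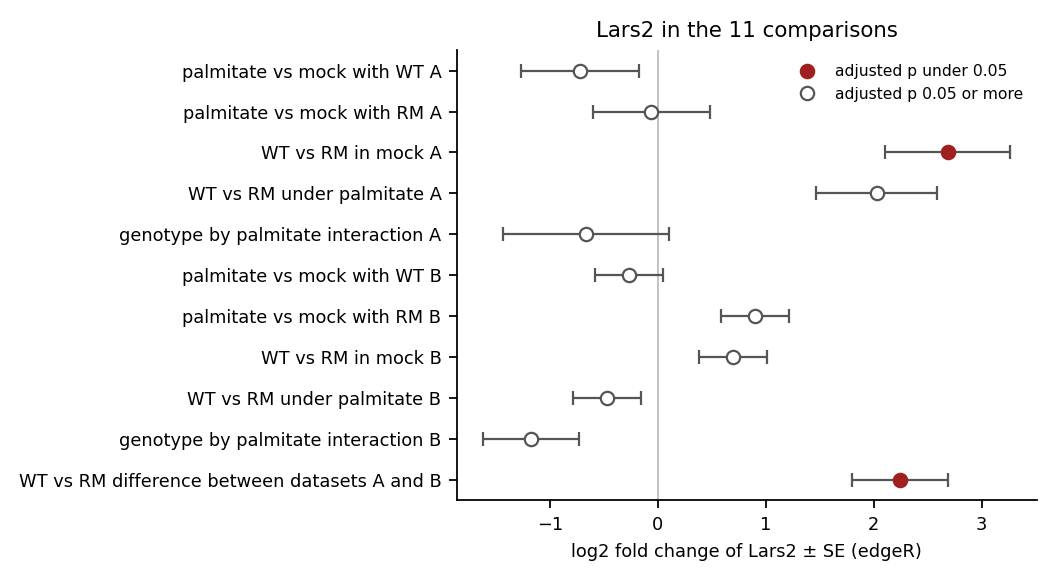
Log2 fold change of Lars2 with its SE (horizontal axis) in the 11 comparisons. Filled red points have an adjusted p under 0.05 in edgeR, namely WT against RM in mock of A (2.69) and the difference of the genotype effect between A and B (2.24).

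Ratios within a library do not depend on scaling. The log2 ratio of Lars2 to mt-Rnr2 was 3.46 ± 0.673 (SD, n = 6) with WT and 1.33 ± 0.625 (SD, n = 6) with RM in A, and 2.77 ± 0.510 (SD, n = 6) with WT and 0.429 ± 0.929 (SD, n = 6) with RM in B. WT minus RM was 2.13 in A and 2.34 in B, each with an adjusted p of 0.0267 in an exact permutation test (two-sided, genotype permuted within treatment, 32 tests), and an exact p of 0.005 is the smallest that 400 arrangements allow. In A the mt-Rnr2 share of the genotypes differed by -0.0706 percentage points (adjusted exact permutation p = 0.699) while the Lars2 share differed by 6.38 (adjusted exact permutation p = 0.0267). In B the mt-Rnr2 share was 1.98 percentage points lower with WT (difference -1.98, adjusted exact permutation p = 0.0356) and the Lars2 share differed by 0.783 (adjusted exact permutation p = 0.148). The mt-Rnr2 difference in B missed the threshold without WT mock replicate 2 or 3, any 1 of the WT palmitate replicates or RM mock replicate 3, with adjusted exact permutation p of 0.0533 to 0.08. The ratio was thus higher with WT in both datasets, beside a difference in the Lars2 share in A and in the mt-Rnr2 share in B.

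Against the nuclear rRNA features the picture depended on which of them was taken. The log2 ratio of Lars2 to their sum was -1.36 ± 0.556 (SD, n = 6) with WT and -2.92 ± 0.578 (SD, n = 6) with RM in A, a difference of 1.55 (adjusted exact permutation p = 0.0267). With n-R5-8s1 alone, a choice made after the data were seen, the log2 ratio was 0.164 ± 0.310 (SD, n = 6) with WT and 0.877 ± 0.411 (SD, n = 6) with RM, a difference of -0.713 in the opposite direction (adjusted exact permutation p = 0.064). n-R5-8s1 was itself higher with WT in A, by 3.22 ± 0.62 (SE) on the log2 scale in mock (edgeR adjusted p = 0.00373) and 2.93 ± 0.61 (SE) under palmitate (edgeR adjusted p = 0.00884). In B the ratio of Lars2 to the summed nuclear rRNA features differed by 0.208 between the genotypes (adjusted exact permutation p = 0.408). Palmitate minus mock of this ratio was -0.801 in A (adjusted exact permutation p = 0.0356), and it missed the threshold without WT mock replicate 1 or 2, any 1 of the WT palmitate replicates or RM mock replicate 2 or 3, with adjusted exact permutation p of 0.0533 to 0.064. With n-R5-8s1 alone it was -0.206 (adjusted exact permutation p = 0.503).

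Against the 16 synthetase mRNAs the log2 ratio of Lars2 was higher with WT by 2.25 in A (adjusted exact permutation p = 0.0267) and differed by 0.189 in B (adjusted exact permutation p = 0.671). Most of the list did not pass for genotype in either dataset. In mock of A, 1 of 14 tested members was higher with WT, with a list median of 0.17 against 0.005 over all features. That member was Ears2 (glutamyl), at 3.03 ± 0.39 (SE, edgeR adjusted p = 5.66e-05), and it was again the only one of 14 under palmitate, at 2.80 ± 0.45 (SE, edgeR adjusted p = 0.000853). Ears2 had 0 to 52 counts in the libraries of A. In mock of B, 2 of 16 passed, beside 14.1% of all features, and both were lower with WT, namely Vars2 (valyl) at -0.86 ± 0.21 (SE, edgeR adjusted p = 0.0118) and Tars2 (threonyl) at -0.64 ± 0.18 (SE, edgeR adjusted p = 0.0269), and under palmitate 0 of 16 passed in edgeR, beside 7.81% of all features. With palmitate, Vars2 rose with WT PKR in B by 0.83 ± 0.21 (SE, edgeR adjusted p = 0.0138), and Cars2 (cysteinyl) fell with RM PKR in B by 1.16 ± 0.31 (SE, edgeR adjusted p = 0.0374). In A, 0 of 14 passed for palmitate in either genotype in edgeR, where 0.335% (WT) and 0.477% (RM) of all features were called. Lars did not pass in any of these comparisons, with 0.71 ± 0.33 (SE, edgeR adjusted p = 0.267) in mock of A. None of the 18 cytosolic synthetase mRNAs passed in either genotype comparison of A (0 in edgeR, beside 3.74% and 3.43% of all features), and 3 of 18 passed in mock of B, all lower with WT, beside 14.1% of all features. These shares are near the background and show nothing of the lists.

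The feature whose counts ran most closely with those of Lars2 was AA474408, the gene that shares the stretch shown above. Likeness was taken as the lower of a pair of Pearson correlations of log2 CPM with Lars2, over the 12 libraries of A and the 12 of B, among the 2680 features that averaged 100 counts or more in each dataset. The correlations were 0.994 in A and 0.948 in B for AA474408, and they share the libraries, their depth and, in A, the split by genotype. Within a genotype, on log2 shares over 6 libraries, Pearson's r was 0.992 with WT and 0.755 with RM in A, and 0.919 with WT and 0.900 with RM in B. Spearman's rho was 1.0, 0.714, 0.657 and 0.886 in the same order. Without the 2 libraries farthest from the median, r was 0.969, 0.303, 0.437 and 0.861, so the value rested on those libraries with RM in A and with WT in B. No p is given because the feature was chosen for this likeness.

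AA474408 lies on the minus strand of chromosome 7 (mm9, 117201501 to 117204839) and had 791 to 144173 counts in A and 4047 to 19375 in B. It held 2.57% ± 0.728 (SD, n = 3) of counts in WT mock of A and 0.341% ± 0.0550 (SD, n = 3) in RM mock of A. WT against RM was 3.08 ± 0.54 (SE) on the log2 scale in mock (edgeR adjusted p = 0.00140) and 2.70 ± 0.53 (SE) under palmitate (edgeR adjusted p = 0.00533) in A. In B the values were 1.10 ± 0.37 (SE, edgeR adjusted p = 0.0657) and -0.56 ± 0.37 (SE, edgeR adjusted p = 0.379). For Lars2 the same 4 values were 2.69, 2.03, 0.70 and -0.47. The log2 ratio of Lars2 to AA474408 ranged from 1.91 to 2.93 in A and from 3.51 to 4.36 in B, and it was 2.68 to 3.24 in C, so the ratio did not overlap between A and B. Whether reads of the shared stretch could be placed in either gene is not given in the sources used here, and the part of each gene in the counts of the other was not tested.

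The next 4 features in likeness were Gm24187 (0.940), Gm25911 (0.888), Gm24270 (0.885) and ENSMUSG00000093077 (0.883), all listed as miRNA features, and Gm23935 was sixth with 0.860. Gm23935, Gm24270, Gm24187 and Gm25911 are near copies of each other on 4 chromosomes, so reads may not be assigned to 1 of them with certainty. Their sequences in GENCODE M21 are shown because they are among the 6 features closest to Lars2 in their counts and yet 0 matches to Lars2-201 were found for Gm23935. Capitals mark positions that differ from Gm23935, counted from the 5' end.
Gm23935: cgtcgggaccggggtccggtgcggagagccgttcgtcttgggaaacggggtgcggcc
Gm24270: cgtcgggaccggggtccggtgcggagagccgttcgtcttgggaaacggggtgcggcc
Gm24187: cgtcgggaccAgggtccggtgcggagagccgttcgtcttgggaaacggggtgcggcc
Gm25911: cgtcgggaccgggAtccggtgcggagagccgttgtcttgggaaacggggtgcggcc
Gm24270 was identical to Gm23935, Gm24187 differed by G11A, and Gm25911 differed by G14A and lacked 1 base. Together these 4 features held 1.51% to 5.56% of counts in the WT libraries of A and 0.188% to 0.330% in the RM libraries, and 2.73% ± 0.412 (SD, n = 6) with WT and 1.82% ± 0.596 (SD, n = 6) with RM in B. In mock of A, Gm23935 was higher with WT by 4.94 ± 0.66 (SE) on the log2 scale (edgeR adjusted p = 8.93e-05), and in mock of B by 0.95 ± 0.31 (SE, edgeR adjusted p = 0.0492). Of the 4 near copies, Gm23935 had the largest value in mock of A, with 2.37 for Gm24270, 2.33 for Gm24187 and 3.43 for Gm25911. In mock of B these had 0.95, 0.93 and 1.34. Although identical in sequence, Gm23935 and Gm24270 held 3.37% and 0.330% of counts in WT mock of A on average. Within RM libraries of A, the correlation of the summed log2 share of the 4 features with that of Lars2 was -0.354 over 6 libraries, against 0.895 within WT. In A they thus ran with Lars2 among WT libraries and across genotypes rather than among RM libraries. In B the values were 0.578 within WT and 0.936 within RM.

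By likeness, the lower of the correlations in A and B, mt-Rnr1, mt-Rnr2 and n-R5-8s1 ran less closely with Lars2. The nuclear rRNA features hold none as long as the large rRNAs, whose likeness to Lars2 was therefore not measured. The likeness of mt-Rnr1 was 0.252 (rank 193 of 2680), that of mt-Rnr2 0.185 (rank 248) and that of n-R5-8s1 0.0864 (rank 381). The low value of n-R5-8s1 came from B, since its correlation was 0.971 in A against 0.0864 in B. In A alone it was below AA474408 (0.994) but above Gm23935 (0.966), Gm24270 (0.954), Gm25911 (0.952) and Gm24187 (0.940). Of 12 relations of log2 shares tested within a genotype and dataset (mt-Rnr1, mt-Rnr2 and the summed nuclear rRNA features), none passed after adjustment. The largest was mt-Rnr1 with WT in A, with Pearson's r of 0.878 (exact permutation p = 0.0222, adjusted 0.267) and Spearman's rho of 0.771 (exact permutation p = 0.103, adjusted 0.610). Without the 2 libraries farthest from the median r was 0.610. n-R5-8s1 alone was not among the relations tested. Its Pearson's r with Lars2 was 0.904 with WT and -0.107 with RM in A, and 0.142 with WT and -0.614 with RM in B. The correlations of the 14 cytosolic or shared synthetase mRNAs with enough counts had opposite signs in the datasets, from 0.00794 (Qars) to 0.811 (Iars) in A and from -0.807 (Nars) to -0.319 (Qars) in B. Lars had 0.467 in A and -0.761 in B.

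**Figure D5:**
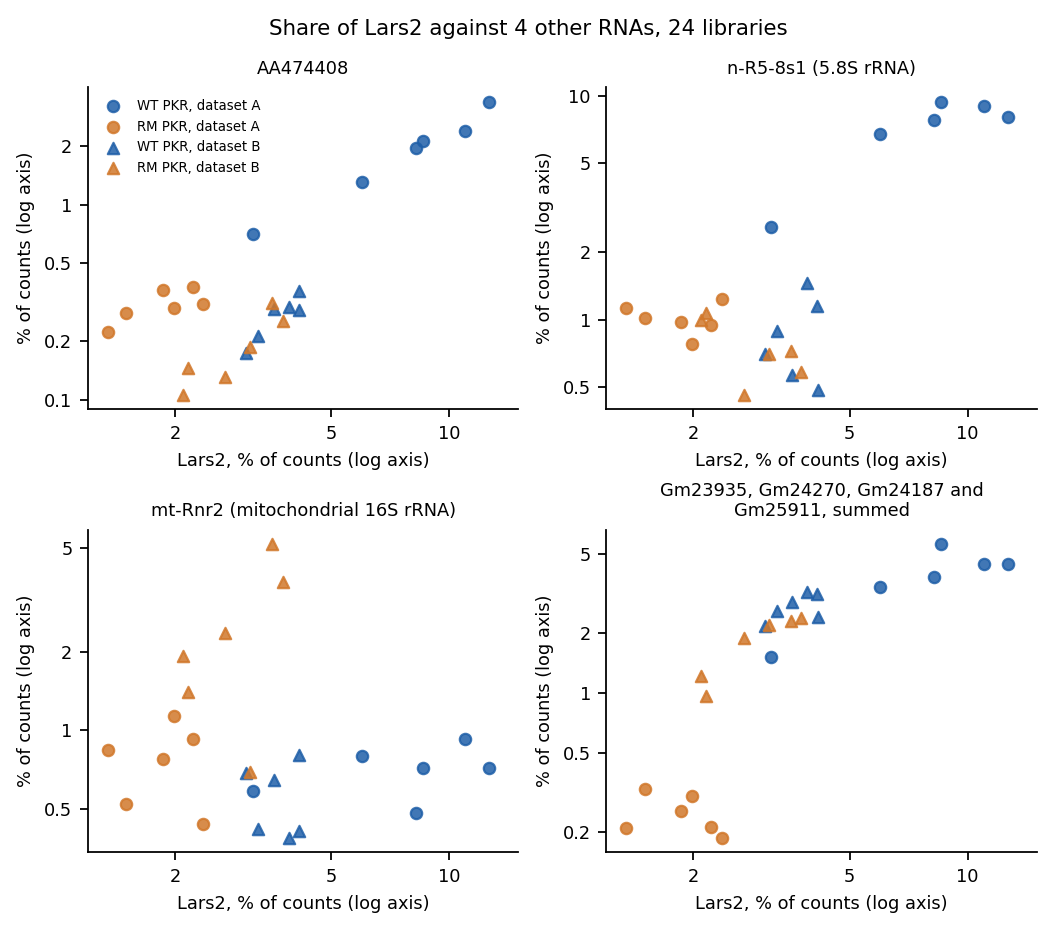
Share of Lars2 (horizontal log axis, percent of counts) against the shares of AA474408, n-R5-8s1, mt-Rnr2 and the 4 near-identical miRNA features (vertical log axes, percent of counts) in 24 libraries. AA474408 rises with Lars2 across the libraries of each dataset, less evenly within RM of A and WT of B. It is highest in the WT libraries of A (0.703% to 3.37%), while the RM libraries of A (0.223% to 0.379%) overlap those of B. mt-Rnr2 reaches 5.17% in RM libraries of B without a like range in Lars2.

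Dataset C gives counts by strand. Lars2 had 0 counts on the minus strand in each of the 4 libraries, against 685272 to 1173435 on the plus strand, its own. A count of 0 allows an antisense share of up to 0.000256% in WT mock, the lowest of the 4 limits, and of up to 0.000438% in RM mock, the highest, covering counting error only. Sense-only counts were common, since 90.5%, 87.3%, 73.5% and 76.7% of features with at least 50 counts had 0 antisense counts, with WT mock first, WT palmitate next, then RM mock and RM palmitate. AA474408 had at most 3 antisense counts and n-R5-8s1 had 0. The mitochondrial rRNAs differed between the WT and RM libraries, 1 of each per treatment. mt-Rnr1 had 142 and 86 antisense counts in WT mock and WT palmitate and 0 in both RM libraries, and mt-Rnr2 had 430 and 293 antisense counts beside 121679 and 115746 sense counts in WT mock and WT palmitate, against 5 and 6 in RM mock and RM palmitate. The 16 synthetase mRNAs together had 125 sense and 4 antisense counts in WT mock, a sense share of 96.9% (95% exact binomial interval 92.3% to 99.2%). In WT palmitate their sense share was 94.4% (89.3% to 97.6%), in RM mock 96.1% (94.7% to 97.2%) and in RM palmitate 94.2% (92.6% to 95.4%). Lars2 thus shared the lack of antisense counts with n-R5-8s1 and with most features, and not with the mitochondrial rRNAs in the WT libraries. The summed nuclear rRNA features had 1 to 5 antisense counts per library. The summed synthetase mRNAs had some in each library, but a sum over 16 mRNAs is not comparable with a single feature.

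All feature counts together made up 12.2%, 13.7%, 15.1% and 20.1% of the observations that the headers of the 4 tables of C give as totals, in the order WT mock, WT palmitate, RM mock and RM palmitate. Against these totals of 60997939, 56667353, 67012286 and 57950559, Lars2 was 1.92%, 1.76%, 1.02% and 1.40%. The shares of Lars2 in C were above those of the same groups in A and B in 4 of 4 groups, and the summed nuclear rRNA features were also at 27.4% to 54.9% of counts. Datasets A, B and C have their own tables, and the level across them was not tested.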

How the data were processed

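Trizol extracts of the precipitates were fragmented before a small RNA library kit was used, per the labels' protocols. CASAVA 1.7.0 and 1.8.2, Novoalign and mm9 are named in the submitters' processing notes, and neither the counting tool nor its use of strand is stated there. The authors deposited whole-number counts per feature and library for A and B, counts by strand for C, a log2 ratio and a score of their own test. The RPKM columns of C, scaled to feature length and the header totals as the authors deposited them, entered no result. In the headers of C, Treat and Ctrl were read as palmitate and mock. Scripts read 32 count columns and left 48 columns of other per-sample values aside. Of 29777 Ensembl identifiers, 25755 were matched to GENCODE M21 names.

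The gene, the lists and the tests were chosen with earlier results of these data known. Shares are percent of all feature counts. Groups were compared with edgeR 4.0.16 (quasi-likelihood, under R 4.3.3, TMM scaling, filterByExpr, robust, two-sided) on the deposited counts of all features, 12 libraries of a dataset together or 24 for both, with Benjamini-Hochberg adjustment over all features and a threshold of 0.05. The fits were tested on simulated data. Shares and ratios were compared by exact permutation within strata (numpy 2.4.6), adjusted over 32 tests. Binomial intervals were computed with scipy 1.17.1. Sequences were compared with blastn 2.17.0. No libraries within a group agreed within sampling noise (chi-square per degree of freedom at least 4.43). Alternatives were DESeq2 1.42.0, other scalings, no filter, fits without robust estimation, a replicate block, left-out libraries and other denominators. Features named are Lars2, its neighbours, the mitochondrial and 3 nuclear rRNAs, Lars, synthetase mRNAs at the extremes or past the threshold, the 5 most like Lars2 and those next in rank. Gm23935, Gm15564 and Gm25878 were named after their values were seen.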

Additional observations from a re-analysis of the deposited data

Results flagged for a closer look

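The genotype difference of Lars2 differed between datasets A and B in a direct test: WT minus RM was 2.24 larger on the log2 scale in A (edgeR adjusted p = 0.00191), with 2.08 to 2.37 when single libraries were left out. The WT libraries of A raised the mean share by which Lars2 was chosen, so the size and p of this difference are not independent of that choice. With both datasets in the fit, the value moved as follows. The difference was 1.94 without both RM palmitate replicates 2 and 3 of B, which leaves a single library in that group. No group holds enough libraries for a check of single outlying samples. In the same comparison, 7.88% of all features tested were called.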

How the results depend on the processing

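The alternatives were run for Lars2, the shares and the ratios, and not for the other features named. Of 102 values of the 11 edgeR comparisons under settings other than single left-out libraries, 91 kept their direction and their side of the threshold. WT against RM under palmitate in A passed with scaling without Lars2 (2.05, adjusted p = 0.0469), with no filter (2.06, adjusted p = 0.0345) and in DESeq2 (1.997, adjusted p = 1.15e-08). In B, DESeq2 called palmitate with RM (0.91), WT against RM in mock (0.69) and the interaction (-1.16), and no filter called palmitate with RM (0.85). WT against RM in mock of B was also called in a fit of only the groups compared and without RM palmitate replicates 2 and 3 (0.70 in each), and the latter turned WT against RM under palmitate to 0.20. Total counts turned palmitate with RM in A to 0.027. With n-R5-8s1 alone, the log2 ratio to nuclear rRNA was -0.713 (WT minus RM) and -0.206 (palmitate minus mock) in A. The cause was not tested for any of these. A minimum of 500 counts moved the features with no antisense count to 88.1% for WT mock, 76.8% for RM mock and 79.1% for RM palmitate of C.

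When single libraries were left out, the log2 fold change of WT against RM ranged from 2.58 to 2.74 in mock of A, from 1.703 to 2.28 under palmitate in A and from -0.711 to -0.230 under palmitate in B. That of palmitate with RM ranged from -0.228 to 0.079 in A and from 0.678 to 1.14 in B, and the interaction in B from -1.41 to -0.921. Palmitate minus mock ranged from -0.952 to -0.640 for the log2 ratio to nuclear rRNA in A, from -0.784 to -0.348 for that to mt-Rnr2 in A and from -0.577 to -0.251 for that to synthetase mRNAs in A. In percentage points it ranged from -0.0547 to 0.217 for Lars2 in B, from -0.0418 to 0.0810 for mt-Rnr1 in A, from -0.0560 to 0.119 for mt-Rnr2 in A, from -0.0611 to 0.102 for the other mitochondrially encoded features in A and from -2.22 to 0.547 for nuclear rRNA in B. WT minus RM of mt-Rnr2 ranged from -0.162 to 0.0130 in A.

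The number of features called moved more than that of Lars2. WT against RM in mock of A called 424, against 723 with no filter, 240 by total counts and 1552 in a fit of only the groups compared. WT against RM under palmitate called 388 in A, against 840 with no filter and 133 in a fit of only the groups compared, and 974 in B, against 2109 by total counts, 244 in a fit of only the groups compared and 16 without RM palmitate replicates 2 and 3. WT against RM in mock of B called 1760, against 978 by total counts, and the A to B difference 1000, against 2641 by total counts and 564 without RM palmitate replicates 2 and 3. Palmitate called 38 with WT and 54 with RM in A, against 197 and 349 with no filter, 6 and 12 by total counts, and 12 and 14 in a fit of only the groups compared. In B it called 1938 with WT, against 1084 by total counts, and 939 with RM, against 2431 by total counts, 276 in a fit of only the groups compared and 37 without RM palmitate replicates 2 and 3. The interaction called 0 in edgeR, against 88 in A and 125 in B with no filter, and in B 119 by total counts, 46 with the replicate block and 350 in DESeq2.

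By the median correlation, the replicate numbers showed no pairing of the samples. Deviations of same-numbered libraries correlated at -0.209 to 0.299 in A and -0.119 to 0.253 in B. Their medians were 0.00482 and 0.0146, against -0.00832 and -0.000501 for libraries of other numbers. With the number as a replicate block, WT against RM in mock of A was 2.68 (adjusted p = 0.0155), and no call of Lars2 changed. Depth limits the shallow library of A, and the values of C have no replicate.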

Other observations

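Below the near copies of Gm23935, the features most like Lars2 were a lysine tRNA on chromosome 13 (chr13.tRNA103-LysCTT, likeness 0.799), Gabarap, which encodes a protein of autophagosome membranes (0.793), and a glutamate tRNA on chromosome 3 (chr3.tRNA303-GluCTC, 0.776). Their mean shares were at most 0.0259% in A, against 5.07% for Lars2. ENSMUSG00000093077, next after Gm24270, held 1.05% of counts in A and 1.15% in B on average. It was 3.15 times as high with WT as with RM in mock of A and 1.94 times as high in mock of B, by ratio of mean shares and with no overlap of the 3 against 3 libraries in either. Under palmitate the ratio was 3.099 in A, with no overlap, and 0.956 in B, where the libraries overlapped. These ratios were not tested, and the share of all features without overlap is not given here. The mitochondrially encoded RNAs other than the rRNAs held 0.695% ± 0.227 (SD, n = 6) of counts with WT and 0.230% ± 0.0975 (SD, n = 6) with RM in A, a difference of 0.465 percentage points (adjusted exact permutation p = 0.0356), in the same direction as that of Lars2. It missed the threshold without WT palmitate replicate 3, RM mock replicate 1 or 2, or RM palmitate replicate 1 (adjusted exact permutation p of 0.0533 to 0.06). In B they held 0.145% ± 0.0806 (SD, n = 6) and 0.263% ± 0.192 (SD, n = 6), a difference of -0.117 (adjusted exact permutation p = 0.347).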
